A study of Macaca fascicularis with 2 samples.

Results

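Carbonic anhydrases were described in single cells of nucleus pulposus (NP) and articular cartilage (AC) from cynomolgus monkeys. The set was fixed by gene name as CA1, CA2, CA3, CA4, CA8, CA9, CA12 and CA13, and 7 of these 8 genes were rows of the count table, which held 21371 genes. CA4 had no row and was not analysed here. The table held 14 carbonic anhydrases in all, and the other 7 served as comparison. NP of a lumbar intervertebral disc and AC of a femoral condyle came from 1 male monkey, 3 years old, and AC of a femoral condyle came from a further one of the same age. Cells were released with collagenases, given 1 of 4 surface tags, sorted as live cells and sequenced together as 1 library of full read counts. No source used here pairs the tags A951 to A954 with tissues, so the tags stand for separately labelled cell suspensions and for no tissue. The 5674 cells with a single tag held 1344177214 reads, from 24907 to 1649566 in a cell.

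Notochordal cells (NCs) are the large cells that the embryonic notochord leaves in the NP, and they were taken as cells with at least 5 reads of KRT19, a keratin, and at least 5 of TBXT, the notochordal transcription factor. The rule found 310 NCs (5.46% of cells, exact binomial 95% interval 4.89 to 6.09%). Tag A951 held 67 NCs among 997 cells, A952 held 236 among 1132, A953 held 5 among 1383 and A954 held 2 among 2162. The NCs were split at their median level of ACTB, cytoplasmic beta-actin, into 155 ACTB-high cells and 155 ACTB-low cells. Tag A951 gave 19 ACTB-high and 48 ACTB-low NCs, and tag A952 gave 133 and 103. The split lay at an ACTB level of 4487 rpm, reads per 1000000 reads of the cell, and 14 NCs were within 1.2-fold of it. Median depth was 186370 reads in NCs and 198674 in the 5364 other cells. It was 210777 reads in ACTB-high NCs and 152523 in ACTB-low NCs.

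Marker genes that the rule did not use were compared with the label. Levels of a group are pooled reads of a gene per 1000000 reads of the group, also in rpm. CDH2, the neural cadherin, was at 120 rpm in NCs against 1.16 in other cells. NCAM1, a neural adhesion molecule, was at 506 against 25.2, and SHH, the hedgehog ligand of the notochord, was at 98.7 against 0.846. FOXA2, a notochordal transcription factor, went against the label with 0.908 rpm in NCs and 5.46 in other cells. COL2A1, the main cartilage collagen, was at 1269 rpm in NCs and at 20076 in other cells, and 5 of the 7 chondrocyte markers compared were at least 2-fold lower in NCs, where 11.9% of all genes compared were. The other 2 were at least 2-fold higher, where 25.1% of all genes were, with ACAN, the large cartilage proteoglycan, at 14440 against 3967 rpm and SOX9, the cartilage transcription factor, at 1120 against 347.

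Carbonic anhydrases are zinc enzymes that interconvert carbon dioxide and water with bicarbonate and a proton, and so set how fast a cell can buffer or export acid. CA1, CA2, CA3 and CA13 work in the cytosol, whereas CA9 and CA12 span the plasma membrane with the catalytic domain outside the cell. CA8 has lost the catalytic activity and binds the inositol trisphosphate receptor. The NP and AC have few or no vessels, their cells live on glycolysis and release lactic acid, and CA12 is a known marker of NP cells.

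CA3, a cytosolic enzyme, and CA12, a membrane enzyme, were higher in NCs than in other cells, and within NCs both were higher in ACTB-low than in ACTB-high cells. CA9 and CA13 had the opposite order, with higher levels in other cells than in NCs. CA2 and CA8 had at least 5 reads in few cells, 70 and 55 of all tagged cells against 133 for CA3, and CA1 had 43 reads in all. A gene was called where 2 groups were at least 2-fold apart. With 1 library there is no replicate of a condition and no test, and intervals are 95% Poisson or binomial intervals that cover counting error only. Reads were not collapsed to molecules, so copies of 1 molecule make the intervals of levels too narrow.

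**Figure D1:**
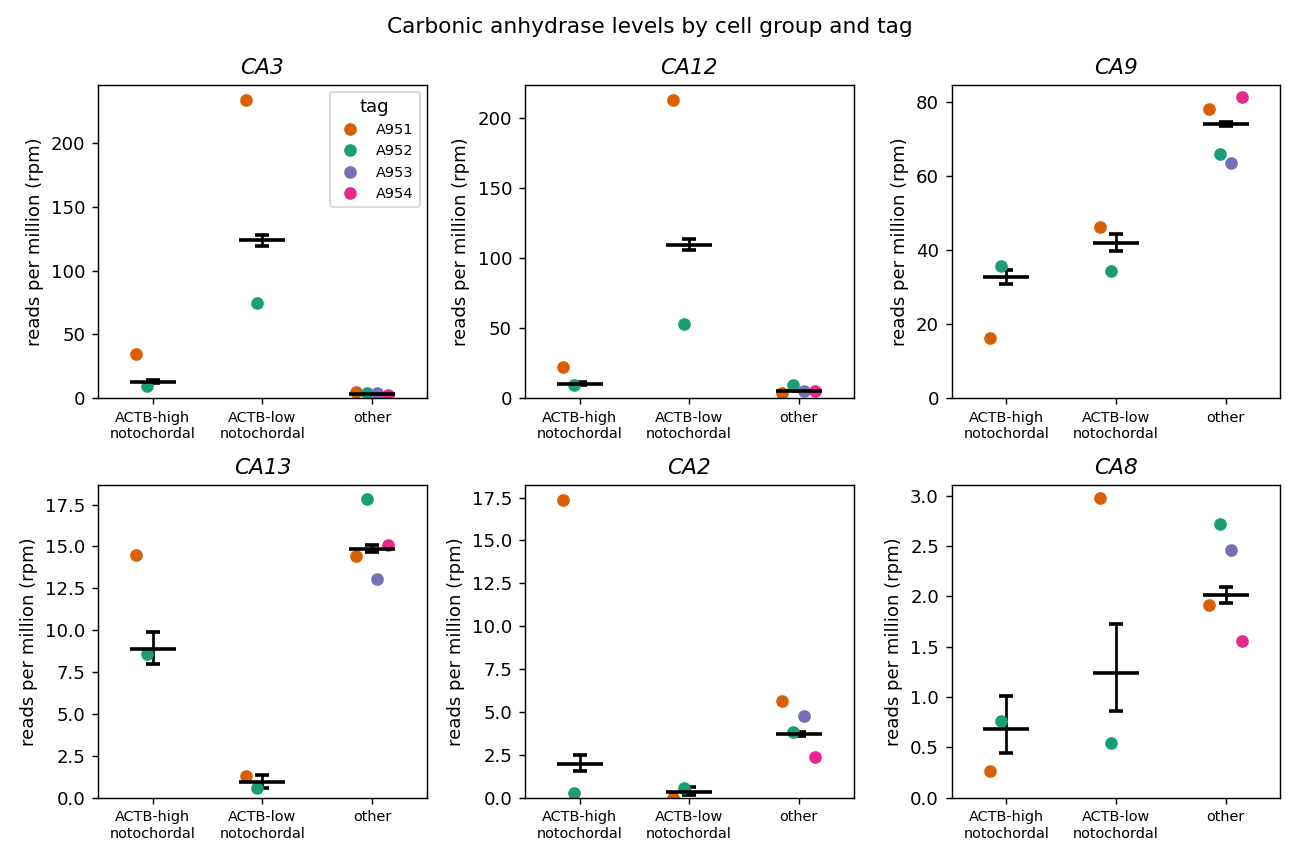
Pooled rpm of 6 carbonic anhydrases (vertical axes, linear, each with its own scale) in ACTB-high NCs, ACTB-low NCs and other cells. Black bars are all 4 tags with 95% Poisson intervals and coloured points are single tags with more than 10 cells in the group. CA3 and CA12 stand highest in ACTB-low NCs of tag A951, at 234 and 213 rpm.

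Of the 7 genes, 6 had a read in at least 5% of the cells of either group and were compared between NCs and other cells. CA3 and CA12 were at least 2-fold higher in NCs, which is 2 of 6 genes, where 25.1% of the 11521 genes compared were. CA2, CA8, CA9 and CA13 were at least 2-fold lower, which is 4 of 6, where 11.9% of all genes compared were. The median log2 ratio of all genes compared was 0.30. The higher calls held under every alternative tried, whereas none of the 4 lower calls held when NCs were taken as cells with at least 5 reads of KRT19 and TBXT added together, and 1 held without tag A952.

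CA3 is a cytosolic enzyme of low activity that is abundant in skeletal muscle and fat. It was at 60.1 rpm in NCs (58.3 to 62.0) and at 3.03 in other cells (2.94 to 3.13), 19.8-fold apart with a log2 ratio of 4.31 (4.25 to 4.37). Of all genes compared, 98.2% had a lower ratio. In tag A951 the levels were 172 rpm in NCs and 4.37 in other cells. In tag A952 they were 33.1 and 3.74. The 2 tags with many NCs thus shared the direction and differed in size, with log2 ratios of 5.30 and 3.14. In other cells of A953 and A954 CA3 was at 3.60 and 1.99 rpm, so other cells of all 4 tags lay far below the NCs. Of the 5 NCs of A953, 1 held 147 CA3 reads and 4 held none. Of the 2 NCs of A954, 1 held 27.

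CA3 reads were concentrated in few cells. Of the 7846 CA3 reads in tagged cells 50.6% fell in NCs, and 50% of all reads lay in 24 cells. At least 5 CA3 reads were found in 47 NCs (15.2%, 11.4 to 19.6%) and in 86 other cells (1.60%, 1.28 to 1.98%). Most NCs therefore had fewer than 5 CA3 reads, and the NCs with any held a median of 31. Thinned to 50000 reads a cell, which leaves out 11 NCs and 205 other cells, the expected share with a read was 16.9% of NCs and 2.94% of other cells, against 20.3% and 7.20% unthinned.

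CA12, the membrane enzyme that faces the extracellular space, was at 52.6 rpm in NCs (50.8 to 54.3) and 5.36 in other cells (5.24 to 5.49). The groups were 9.80-fold apart with a log2 ratio of 3.29 (3.23 to 3.35), above 96.3% of all genes compared. In tag A951 the levels were 154 and 3.48 rpm, a log2 ratio of 5.47. In tag A952 they were 24.7 and 9.53, a log2 ratio of 1.37. The direction was shared and the size was not. A single other cell of A952 held 693 of the 1723 CA12 reads of that group, and without it the group was at 5.71 rpm. Other cells of A953 and A954 were at 4.82 and 5.02. In the 5 NCs of A953, 2 cells held 166 and 158 CA12 reads, 1 held 2 and the remaining ones held none.

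At least 5 CA12 reads were found in 37 NCs (11.9%, 8.54 to 16.1%) and 93 other cells (1.73%, 1.40 to 2.12%). The share with at least 1 read was 25.2% of NCs and 13.1% of other cells. At 50000 reads a cell the expected shares with a read were 17.2% and 4.65%. Of all CA12 reads 33.6% fell in NCs, and 24 cells held 50% of them. Of the 702 other cells with a CA12 read 93 had at least 5, so most of their share came from cells with few reads.

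**Figure D2:**
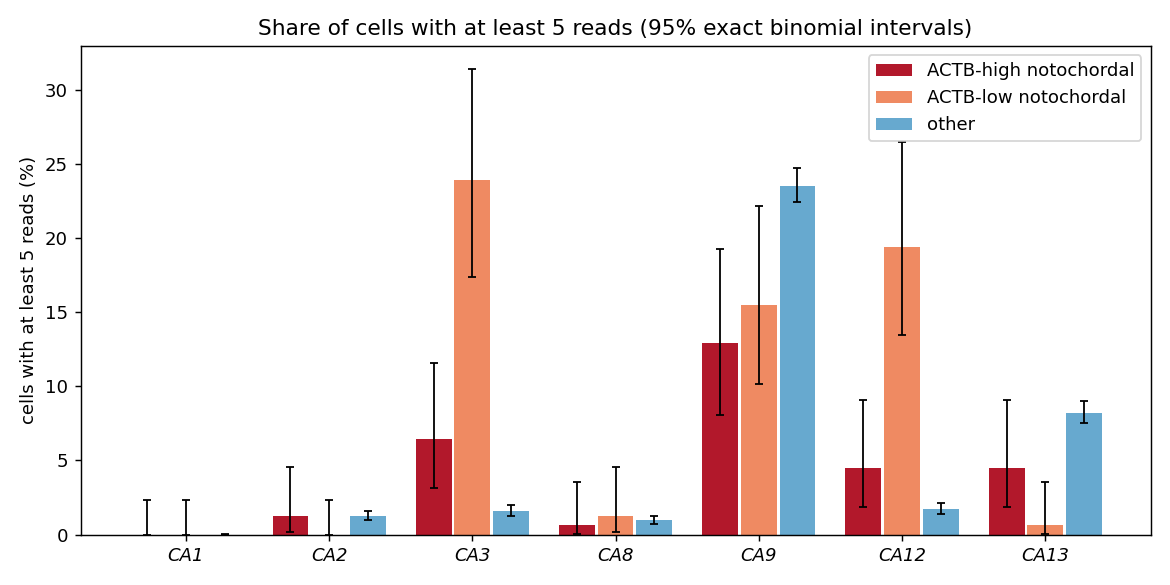
Share of cells with at least 5 reads of each of the 7 genes (vertical axis, percent) in ACTB-high NCs, ACTB-low NCs and other cells, with exact binomial 95% intervals for counting error. CA3 reached 23.9% and CA12 19.4% of ACTB-low NCs, and CA9 reached 23.5% of other cells.

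Free RNA in the suspension gives reads in cells that do not express a gene, and genes of NCs served as a reference for it. SHH, at 98.7 rpm in NCs the nearest of them in level to CA3 and CA12, had at least 1 read in 8.18% of other cells and at least 5 in 0.205%. NRN1, a neuritin gene at 522 rpm in NCs, had 8.41% and 0.913%. C3orf49 and SRGN, at 2274 and 739 rpm in NCs, reached 1.38% and 2.72% of other cells at 5 reads. Among other cells 53 had at least 5 reads of KRT19 only and 32 of TBXT only. The part of NCs missed by the rule in these shares was not tested. The 1.60% for CA3 and 1.73% for CA12 lie above SHH and NRN1 and within the range of the far more abundant C3orf49 and SRGN. APOE, a further gene abundant in NCs and not used to choose them, gave a ratio within each tag. In A951 there were 0.0233 CA3 reads for each APOE read in NCs and 0.0328 in other cells, and for CA12 these values were 0.0208 and 0.0261. In A952 they were 0.00277 and 0.00742 for CA3 and 0.00207 and 0.0189 for CA12. With APOE the 2 groups were thus closer in A951 than in A952. For CA3 in A951 the values were 0.155 and 6.56 with TBXT and 0.155 and 0.627 with KRT19, the genes of the rule. APOE had a read in 78.7% of other cells, and in 81.25% of those of A954, which held 2 NCs. The ratios bear on free RNA only if this APOE is free RNA. Neither that nor the part of free RNA in the reads of other cells was tested.

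CA9 is a membrane enzyme with an extracellular catalytic domain and a textbook target of hypoxia-inducible factor. It was at 36.6 rpm in NCs (35.2 to 38.1) and 73.9 in other cells (73.4 to 74.4), a log2 ratio of -1.01 (-1.07 to -0.96). In tag A951 the levels were 36.8 and 78.0 rpm, and in tag A952 35.2 and 65.8. Other cells of A953 and A954 were at 63.4 and 81.2 rpm. The difference sits at the 2-fold limit: it was 2.12-fold in A951 and 1.87-fold in A952. CA9 was also the most evenly spread of the described genes, since 269 cells held 50% of its reads.

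At least 5 CA9 reads were found in 44 NCs (14.2%, 10.5 to 18.6%) and 1262 other cells (23.5%, 22.4 to 24.7%). The shares with at least 1 read were 29.4% and 40.1%, and at 50000 reads a cell the expected shares with a read were 18.7% and 28.7%. Among the 5 NCs of A953, 2 held 93 and 71 CA9 reads. The 2 NCs of A954 held none, which allows up to 11.4 rpm.

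CA13, a cytosolic enzyme, was at 5.49 rpm in NCs (4.94 to 6.09) and 14.9 in other cells (14.6 to 15.1), a log2 ratio of -1.44 (-1.59 to -1.29). The levels in tag A951 were 5.41 and 14.4, and those in A952 were 5.71 and 17.8. Other cells of A953 and A954 were at 13.1 and 15.1. Most of the level in NCs of A951 came from 1 cell at 308 rpm. At least 5 CA13 reads were found in 8 NCs (2.58%, 1.12 to 5.02%) and 441 other cells (8.22%, 7.50 to 8.99%). MATN3, a cartilage matrix gene read in 65.0% of other cells at that count, was found in 4.52% of NCs. At 425 rpm in other cells and 35.1 in NCs it was far more abundant than CA13, so its share sets no limit for CA13. How much of the CA13 reads of NCs came from free RNA was not tested.

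CA2, the fast cytosolic enzyme that osteoclasts and red cells are known for, was at 1.29 rpm in NCs and 3.71 in other cells, a log2 ratio of -1.53 (-1.85 to -1.22). The tags did not share this difference. In A951 the levels were 5.41 and 5.64 rpm, and in A952 they were 0.370 and 3.82. In A951 all 66 CA2 reads of NCs came from 2 cells, which were the only NCs with at least 5 reads. In other cells 68 reached that count (1.27%), and 11 cells held 50% of all CA2 reads. The share with at least 1 read was 5.48% of NCs and 5.07% of other cells.

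CA8 was at 0.923 rpm in NCs and 2.01 in other cells, a log2 ratio of -1.13 (-1.52 to -0.76). The levels in A951 were 2.13 and 1.92, and in A952 0.682 and 2.72, so the tags differed in direction. At least 5 reads were found in 3 NCs and 52 other cells, 0.968% and 0.969%. Pooled levels and shares of cells thus gave different pictures, and 16 cells held 50% of the CA8 reads.

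CA1, the abundant enzyme of red cells, had 43 reads in 43 tagged cells, each a single read, with 2 of them in NCs. No cell reached 5 reads, which allows up to 0.968% of NCs and 0.0559% of other cells at that count. It sets no limit on cells with fewer reads. CA1 was not found by its symbol in the RefSeq annotation of the cynomolgus assembly T2T-MFA8v1.1. The 4 red cell markers with a row, of 11 listed, summed to 0.227 rpm in NCs and 0.274 in other cells, with EPB42 the most abundant. Of the 6 osteoclast markers with a row, CTSK, the collagen-cleaving cathepsin, made up most of the sum of 56.3 rpm in NCs and 150 in other cells. The 5 skeletal muscle markers with a row summed to 47.7 and 66.9 rpm, and the 5 fat cell markers to 7.36 and 4.41, with PLIN1 the most abundant. TNNT3, a fast troponin, made up most of the muscle sum in other cells, with 54.7 rpm against 2.13 in NCs. Of the 5 muscle genes 2 were at least 2-fold higher in NCs and 1 was lower, where 25.1% and 11.9% of all genes compared were. ACTA1, skeletal alpha-actin, was at 22.2 and 1.07, and MYH7, a slow myosin, at 20.2 and 7.43. In the ACTB split MYH7 had the order of CA3, with 7.85 rpm in ACTB-high and 36.8 in ACTB-low NCs, and ACTA1 the opposite one, with 30.2 and 11.4. The part of these markers in the CA3 difference was not tested.

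Within NCs, CA3 and CA12 were lower in ACTB-high cells in both tags that held many NCs. The same 6 genes were compared, and 2 of them, CA3 and CA12, were at least 2-fold lower in ACTB-high than in ACTB-low NCs, where 17.8% of the 11776 genes compared were. CA2 and CA13 were at least 2-fold higher, where 12.0% of all genes were. The median log2 ratio of all genes compared was -0.17.

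CA3 was at 12.7 rpm in ACTB-high NCs (11.5 to 13.8) and 124 in ACTB-low NCs (120 to 128), 9.77-fold apart with a log2 ratio of -3.29 (-3.43 to -3.15). In tag A951 the levels were 34.5 and 234 rpm, and in A952 they were 9.74 and 74.9. Both tags gave the same direction, with log2 ratios of -2.76 and -2.94. The A951 value rests on few cells: of its 19 ACTB-high NCs only those at 424 and 76.9 rpm held CA3. With the split set anew the log2 ratio was -1.32 without A952 and -2.17 at the median of each tag. At least 5 reads were found in 10 ACTB-high NCs (6.45%, 3.14 to 11.5%) and 37 ACTB-low NCs (23.9%, 17.4 to 31.4%). The ACTB-low cells were the shallower ones, and at 50000 reads a cell the expected shares with a read were 7.02% and 26.7%. The level of ACTB-high NCs was still above the 3.03 of other cells.

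CA12 was at 10.1 rpm in ACTB-high NCs (9.11 to 11.2) and 109 in ACTB-low NCs (106 to 113), 10.8-fold apart with a log2 ratio of -3.44 (-3.59 to -3.28). The tags shared the direction, with 22.4 and 213 rpm in A951 and 8.95 and 52.9 in A952. Nearly all CA12 of the 19 ACTB-high NCs of A951 lay in cells at 400 and 329 rpm. With the split set anew the log2 ratio was -2.54 without A951, -2.35 without A952 and -2.39 at the median of each tag. At least 5 reads were found in 7 ACTB-high NCs (4.52%, 1.83 to 9.08%) and 30 ACTB-low NCs (19.4%, 13.5 to 26.5%). In A952 the 8.95 rpm of ACTB-high NCs lay below the 9.53 of other cells, and above the 5.71 that these had without the cell of 693 reads, so that order turns on 1 cell.

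CA13 had the reverse order, with 8.91 rpm in ACTB-high NCs and 0.921 in ACTB-low NCs, a log2 ratio of 3.27 (2.70 to 3.91). The levels were 14.5 and 1.31 in A951 and 8.56 and 0.598 in A952. With the split set anew the log2 ratio was 1.68 without A951, 1.78 without A952 and 1.72 at the median of each tag. This rests on few cells: 7 ACTB-high NCs and 1 ACTB-low NC had at least 5 reads, and 1 cell held 130 of the 337 reads. With NCs taken by the sum of KRT19 and TBXT reads the log2 ratio was -0.10. CA2 was at 1.98 and 0.354 rpm, and 66 of its 75 reads in ACTB-high NCs were those of the same 2 cells of A951. In A952 CA2 had 9 and 10 reads. The CA2 difference is therefore that of 2 cells.

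CA9 differed little between the NC groups, with 32.7 and 41.9 rpm and a log2 ratio of -0.36 (-0.47 to -0.24). In A951 it was at 16.3 and 46.0, and in A952 at 35.6 and 34.4. The shares with at least 5 reads were 12.9% (8.06 to 19.2%) and 15.5% (10.2 to 22.2%), and the intervals overlapped. CA8 had 26 reads in ACTB-high NCs and 35 in ACTB-low NCs, a log2 ratio of -0.85 (-1.64 to -0.08). The tags differed, with 1 and 25 reads in A951 and 25 and 10 in A952. In A952 the log2 ratio was 0.48 (-0.63 to 1.70), an interval that includes no difference. CA1 had 1 read in each. CA2, CA3 and CA13 lie next to or close to each other on 1 chromosome in the RefSeq annotation of the cynomolgus assembly T2T-MFA8v1.1, where CA2 and CA3 are direct neighbours, yet the pooled levels of CA3 had the opposite order to those of CA13 in both comparisons. CA2 had the order of CA13 between NCs and other cells. In the ACTB split its pooled order was that of 2 cells of A951. In A952 CA2 was at 0.273 rpm in ACTB-high and 0.544 in ACTB-low NCs. That log2 ratio of -0.99 (-2.47 to 0.46) has an interval that includes no difference, so A952 gave no order.

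Other markers differed with the ACTB split, and their part in these differences was not tested. The 4 proliferation markers summed to 51.2 rpm in ACTB-high NCs, with TOP2A the most abundant, and 17.8 in ACTB-low NCs, with UBE2C the most abundant. Of the 1936 reads behind the first sum 1348 came from the 2 ACTB-high NCs of A953. The sums were 20.3 and 43.4 rpm in A951 and 15.5 and 4.40 in A952, so these tags had opposite orders. The 7 chondrocyte markers with a row, of 8 listed, summed to 20541 and 15240 rpm, with ACAN the most abundant in both. ACAN carried this order with 16953 against 11073 rpm, and SOX9 was at 1525 and 577. The other 5 genes had lower levels in ACTB-high NCs. COL2A1 was at 914 against 1744 rpm, COL9A1 at 147 against 354, COL11A1 at 540 against 864, HAPLN1 at 455 against 556 and MATN3 at 7.35 against 72.3. The 8 macrophage and leukocyte markers summed to 30.9 and 14.8 rpm, and AIF1 was at 0 in both. CD68, a lysosomal protein, at 14.4 and 3.22 rpm, and CD14, at 10.6 and 3.29, carried the sum. PTPRC, the pan-leukocyte marker, had the opposite order with 0.502 and 2.37, and LYZ was at 5.02 and 5.45. SHH was at 155 rpm in ACTB-high NCs and 22.9 in ACTB-low NCs, the opposite order to CA3 and CA12.

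SHH and CA3 were also set side by side directly. The 72 NCs with at least 5 SHH reads held 5.90 rpm of CA3 and the other 238 held 81.2. In A952 these levels were 5.61 and 45.8, and in A951, where 9 NCs had SHH, 13.0 and 192. CA12 was at 20.5 and 65.0 rpm. At least 5 SHH reads were found in 36.1% of ACTB-high and 10.3% of ACTB-low NCs, so this comparison shares cells with the ACTB split.

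The order of NCs by ACTB was followed in 4 groups of 77 or 78 cells, from the lowest ACTB to the highest. CA3 was at 96.5, 146, 17.8 and 7.28 rpm, and CA12 at 86.6, 128, 8.77 and 11.5. Neither gene followed ACTB evenly: pooled over tags both were highest in the second group and far lower in the third and the fourth. The order of the first 2 groups was not shared by the tags: CA3 was at 98.8 and 52.0 rpm in A952 and CA12 at 226 and 203 in A951. At least 5 CA3 reads were found in 19, 18, 6 and 4 cells, so the first 2 groups had like shares. CA13 was at 1.17, 0.711, 13.6 and 3.99 rpm, with 6 of its 8 NCs of at least 5 reads in the third group. CA9 had no such order, with 22.1, 58.3, 33.9 and 31.4.

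**Figure D3:**
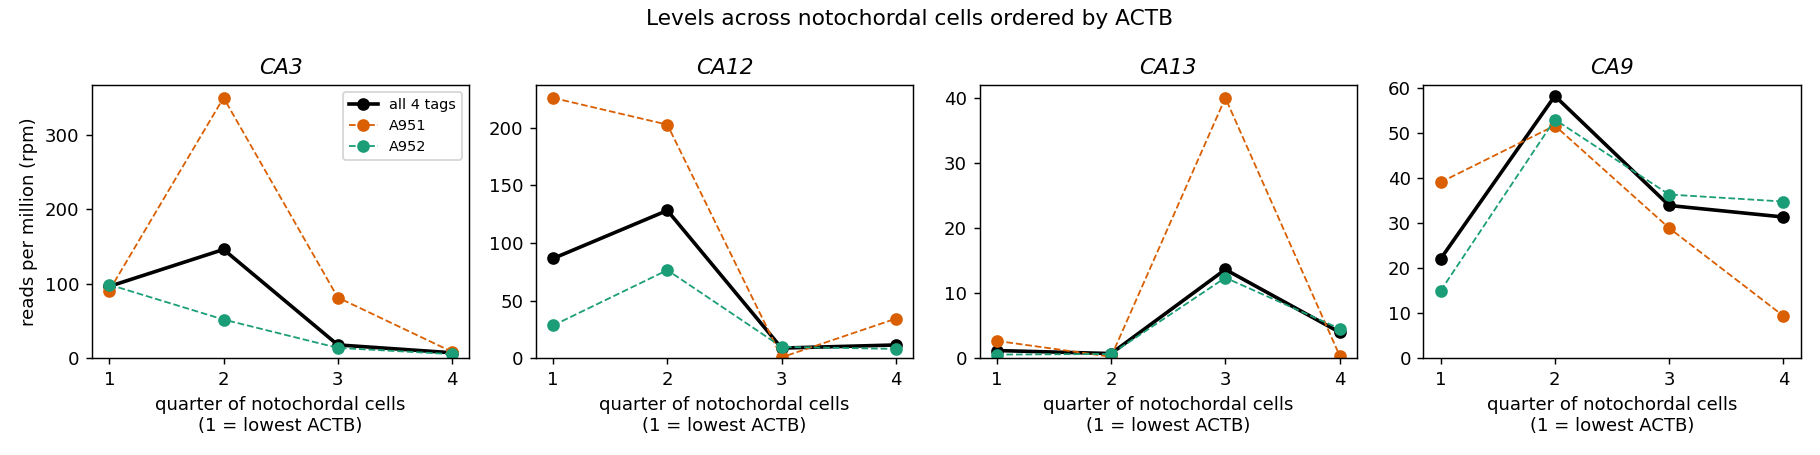
Pooled rpm of CA3, CA12, CA13 and CA9 (vertical axes, linear) in 4 near-equal groups of NCs ordered by ACTB (horizontal axis, 1 lowest to 4 highest), for all tags and for tags A951 and A952. CA3 and CA12 stand at 146 and 128 rpm in the second group and at 17.8 and 8.77 in the third, and the points of A951 in the third group rest on 6 cells.

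CA3 and CA12 were partly read in the same cells. With at least 5 reads as the limit, 14 NCs held both, which is 29.8% of the 47 with CA3 and 37.8% of the 37 with CA12. Of NCs without CA3, 8.75% held CA12. Within ACTB-low NCs 13 cells held both, 35.1% of those with CA3, and 14.4% of the cells without CA3 held CA12. The remaining cells with CA3 had under 5 reads of CA12, and the converse, so neither gene marked all cells of the other. CA9 was held by like shares of both: 12.8% of NCs with CA3 and 14.4% of those without it held CA9.

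**Figure D4:**
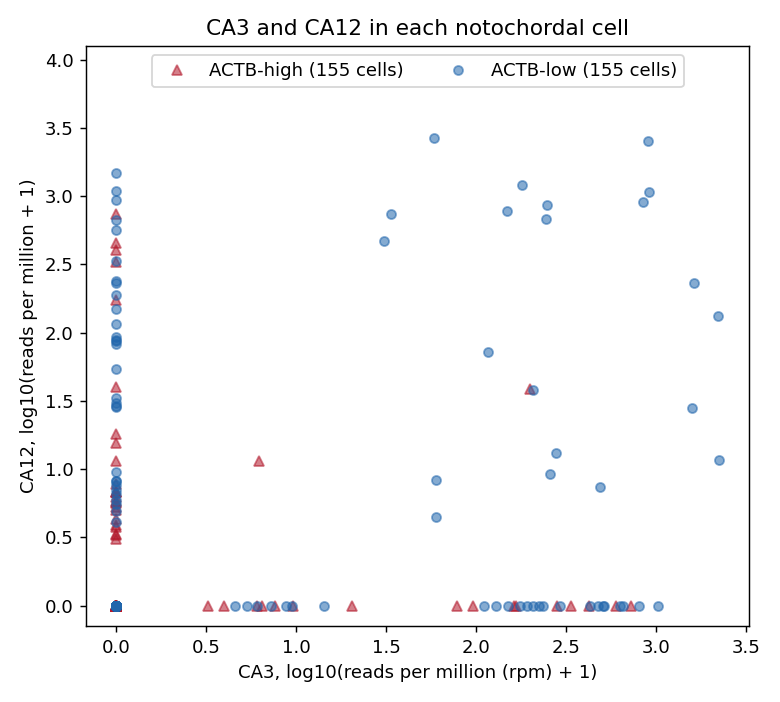
Level of CA12 against that of CA3 in each of the 310 NCs, both as log10 of rpm plus 1, with ACTB-high and ACTB-low cells marked. Points on an axis hold no read of the other gene. Of the 14 cells with at least 5 reads of both genes 13 are ACTB-low.

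Other cells were not uniform in CA9. The 62 other cells with at least 5 reads of the proliferation genes MKI67 or TOP2A held 140 rpm of CA9, and the 72 with as many of COL10A1, the collagen of hypertrophic chondrocytes, held 115. The 887 with as many of ASPN and of CILP, genes of superficial and ageing cartilage, held 86.1, against 73.9 over all other cells. At least 5 CA9 reads were found in 43.5% (31.0 to 56.7%), 29.2% (19.0 to 41.1%) and 34.7% (31.6 to 38.0%) of these cells. The interval of the COL10A1 set includes the share of all other cells. Sets and shares were both cut at 5 reads, which deeper cells reach more easily, and the part of depth was not tested. CA13 was at 10.2, 5.37 and 17.5 rpm in the same sets. CA3 was at 7.03, 0.430 and 1.28, all far under the 60.1 of all NCs pooled. ACTB-high NCs of A952, at 9.74, were close to the first of these. These sets are ranges of reads and not cell types. At least 5 reads of PRG4, the lubricin gene of superficial cartilage, were found in 5348 of the 5364 other cells, so it set no group apart.

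Genes with the most similar pattern were sought over 7 groups, the ACTB-high NCs of A952, the ACTB-low NCs of A951 and A952 and the other cells of each tag, among 10578 genes. The groups share 1 library and the correlations of log2 levels are descriptions. VPS13B (r = 0.996), RBM19 (0.996) and ZMYM2 (0.995) were most like CA3. SLMAP (0.992), USP40 (0.992) and WIPF2 (0.990) were most like CA12. CA3 and CA12 followed each other with r = 0.97, and CA12 was the gene at rank 188 for CA3. STK39 (0.995), JAM2 (0.993) and PTX3 (0.988) were most like CA9, and CDKN1A (0.998), NRBP1 (0.994) and HEATR9 (0.993) most like CA13. CA8 was nearest to PIDD1, RIF1 and ZNF496, with r from 0.965 to 0.972.

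The other carbonic anhydrases gave no further gene with the pattern of CA3 over many cells. Of the 7 with a row 4 were compared, and 2 of these were at least 2-fold lower in NCs, where 11.9% of all genes compared were. CA11, a secreted member without catalytic activity, was at 10.8 and 30.0 rpm, less than 2-fold apart within A951 and A952 with log2 ratios of -0.91 and -0.93. CA5A, a mitochondrial enzyme, was at 0.454 and 1.04 rpm. At least 5 CA5A reads were found in 0% of NCs and 0.391% of other cells, and 8 cells held 50% of its reads. In A952 1 other cell held 217 of 297 reads. Without it the other cells of A952 were at 0.443 rpm, against 0.545 in NCs. CA5B, the second mitochondrial enzyme, was at 112 in NCs and 60.7 in other cells, a log2 ratio of 0.88. CA14, a membrane enzyme, was at 3.36 and 0.165 rpm, but with at least 5 reads in 1.94% of NCs and under the limit for comparison. CA10, also without activity, had a read in 61.4% of all tagged cells and a log2 ratio of 0.35. Of the 4 genes compared in the ACTB split 1 was at least 2-fold lower in ACTB-high NCs, where 17.8% of all genes compared were. This was CA11, with 6.05 rpm in ACTB-high and 17.2 in ACTB-low NCs.

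Bicarbonate leaves and enters cells through SLC4 and SLC26 transporters. Of 16 genes 12 were compared between NCs and other cells, 1 was at least 2-fold higher in NCs and 2 lower, and their median log2 ratio was -0.41. The shares over all genes compared were 25.1% and 11.9%, so the count of lower genes was near that of genes at large. SLC4A11, a proton-coupled member of the family, was at 3.74 and 0.833 rpm, with log2 ratios of 3.66 in A951 and 0.56 in A952. SLC4A7, a sodium bicarbonate cotransporter, was at 19.2 and 59.7, and SLC26A4, the anion exchanger pendrin, at 0.272 and 1.99, with log2 ratios of -2.52 and -0.78 in these tags. In the ACTB split 2 were at least 2-fold lower in ACTB-high NCs and 1 was higher, where 17.8% and 12.0% of all genes compared were. SLC26A6 was at 1.08 against 14.8 rpm, with at least 5 reads in 1.29% of ACTB-high and 5.16% of ACTB-low NCs. SLC4A4 was at 3.89 against 18.8, with 1.94% and 4.52%. SLC4A3 was at 6.66 against 0.779, with at least 5 reads in 1.29% and 0.645% of these cells, so all 3 differences rest on few cells.

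Protons leave through sodium-proton exchangers, the voltage-gated channel HVCN1 and the vacuolar ATPase. Of 28 names listed, which give TCIRG1 also under an older name, 24 had a row and 20 were compared, with 7 at least 2-fold higher in NCs, 4 lower and a median log2 ratio of 0.90. Over all genes compared 25.1% were higher and 11.9% lower, with the median of 0.30. ATP6V1B2, a subunit of the ATPase, was at 391 rpm in NCs and 53.8 in other cells, with log2 ratios of 2.84 in A951 and 3.21 in A952. SLC9A2, an exchanger, was at 3.13 and 0.530, but 0.645% of NCs had at least 5 reads and the log2 ratio was 0.03 in A951. SLC9A8, the Golgi exchanger, was at 26.4 and 9.79, but the tags went opposite ways, with log2 ratios of -1.05 in A951 and 2.06 in A952. TCIRG1, the ATPase subunit of osteoclasts, was at 1.26 and 6.65, and SLC9A9, an endosomal exchanger, at 7.63 and 21.5. Of 21 genes compared in the ACTB split 3 were at least 2-fold higher in ACTB-high NCs and 2 were lower. Over all genes compared in that split 12.0% were higher and 17.8% lower. ATP6V1B2 was at 374 and 414 rpm in ACTB-high and ACTB-low NCs, so it did not separate the NC groups as CA3 and CA12 did.

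Lactate is carried with a proton by SLC16 transporters. Of 9 genes listed 7 had a row, and SLC16A3 and BSG had none, so they could not be compared. Of 6 genes compared none was at least 2-fold higher in NCs and 2 were lower, where 25.1% and 11.9% of all genes compared were. SLC16A1, the monocarboxylate transporter MCT1, was at 54.3 rpm in NCs and 145 in other cells, with log2 ratios of -1.96 in A951 and -1.60 in A952. SLC16A7, or MCT2, was at 2.91 and 8.44, with at least 5 reads in 0.645% of NCs and 4.96% of other cells. LDHA, the lactate dehydrogenase subunit of glycolysis, was at 330 and 210.

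CA9 and CA12 are known hypoxia genes, and 12 other genes of that response were compared. In NCs 3 of the 12 were at least 2-fold higher, a share like the 25.1% of all genes compared, and none was lower, against 11.9% of all genes. Their median log2 ratio was -0.13, against 0.30 for all genes. ADM, the peptide adrenomedullin, was at 95.3 rpm in NCs and 5.52 in other cells, with log2 ratios of 4.51 and 3.06 in A951 and A952. KDM3A, a histone demethylase, was at 51.8 and 16.5, and PDK1, a kinase that limits pyruvate oxidation, at 10.9 and 4.63. PDK1 was 2-fold apart in A951 and not in A952, with log2 ratios of 2.35 and 0.69. HIF1A itself was at 483 and 745, a log2 ratio of -0.63. In the ACTB split ADM was lower in ACTB-high NCs, with 66.3 against 134 rpm and log2 ratios of -2.80 in A951 and -0.58 in A952. ANKRD37 was at 2.01 against 21.2, and the other 10 genes were less than 2-fold apart in the pooled levels. Among these PDK1 had opposite orders in the tags, with log2 ratios of -5.00 in A951 and 4.00 in A952. The tags also differed in sign for EGLN3, at -0.53 and 1.02, and VHL, at 1.04 and -0.04. So they did for HIF1A, at -0.14 and 0.31, and SLC2A1, at -0.10 and 0.33. ADM and ANKRD37 are 2 of 12 genes, near the 17.8% of all genes compared in that split.

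**Figure D5:**
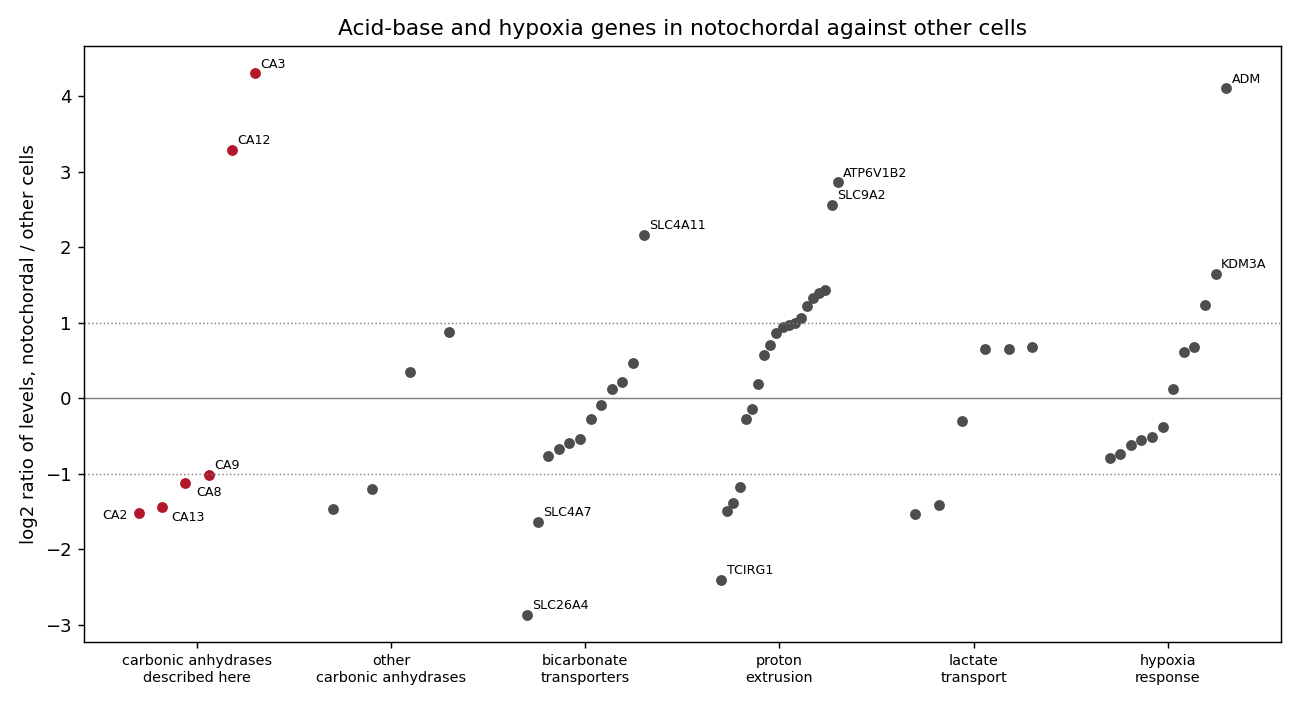
Log2 ratio of pooled levels, NCs over other cells (vertical axis), for the compared carbonic anhydrases and 5 lists of related genes, each point a gene and dotted lines at 2-fold. CA3 and CA12 stand at 4.31 and 3.29, ADM at 4.11, and the 4 other described carbonic anhydrases lie under the lower dotted line.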

How the data were processed

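Cells were prepared by TAS-seq, a method that amplifies cDNA on the capture beads of the BD Rhapsody system. Per the submitters' processing notes, HISAT2 2.2.1 and featureCounts 2.0.2 were used. The deposited values are raw counts, the whole reads that fell on a gene in a cell, neither scaled nor collapsed by molecular identifiers. The genome build is not given in the sources used here, so no coordinates or sequences are printed. Reads that map to several genes could be counted, so reads of near-identical copies may be shared.

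Of 5723 cells, 42 with more than 1 tag and 7 with no tag were left out. Doublets within a tag cannot be seen and stay in. A further table with 1358 cell columns that no sample label names was not used. Reads were pooled over the cells of a group, divided by the reads of that group and multiplied by 1000000. Poisson, Clopper-Pearson and conditional binomial intervals of 95% came from scipy 1.17.1 under Python 3.11.15, with numpy 2.4.6 for sums and matplotlib 3.10.9 for figures. A count of 0 was taken to allow 3 reads or cells. Genes with a read in at least 5% of cells of either group were compared. Ratios, intervals and thinning were checked on simulated data. The counts simulated for ratios and intervals were Poisson, as the intervals assume, so reads clumped in few cells were not covered.

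The members, lists, rules and limits were chosen with earlier results of these data known. The groups by ACTB in 4 and by SHH were added after the levels had been seen, as was MATN3 as a reference. Named were the listed carbonic anhydrases, at most 5 genes of each related list that were 2-fold apart, and the 3 genes most like each member. CA5B, CA14, CA10, HIF1A, LDHA, the muscle, cartilage and leukocyte markers and the genes named for the ACTB split fall outside that rule and were chosen after their values were seen. The alternatives were other NC rules, depth limits, means over cells, ratios within tags, and leaving out a tag, the deepest cells or the cell with the most reads.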

Additional observations from a re-analysis of the deposited data

Results flagged for a closer look

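Among other cells, CA7, a cytosolic carbonic anhydrase of brain and muscle, was at 1.46 reads per 1000000 reads (rpm) in tag A954, far from the other 3 tags, which lay between 0.0553 and 0.201. A single cell held 598 of the 823 reads, and without it the level was 0.399. The same comparison over 4 tags was made for 14 genes, and chance marks about 1 in 20 such groups.

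The 42 cells with more than 1 tag were in no comparison. They held 4.66 rpm of CA8, 140 of CA9 (139.857 unrounded), 41.2 of CA12 and 6.01 of CA13, all above the limit that a count of 0 allows. Of their 336 CA12 reads 303 lay in 1 cell, and of their 38 CA8 reads 35 did. CA9 had at least 5 reads in 11 of these cells.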

How the results depend on the processing

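CA3 and CA12 kept their direction and stayed at least 2-fold apart in all 13 alternatives between NCs and other cells, with log2 ratios of 3.64 to 5.73 and 2.37 to 5.00. They did so in all 16 alternatives of the ACTB split, from -4.20 to -1.32 and from -3.70 to -1.86. CA9 stayed 2-fold lower in NCs in 6 of 13, CA8 in 8, CA2 in 11 and CA13 in 12.

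With KRT19 and TBXT reads added together to 5, the genes lower in NCs went from 4 to 0 and those higher in ACTB-high NCs from 2 to 1, CA8 at 1.27. Under that rule CA2 and CA13 turned to -1.18 and -0.10 in the ACTB split. The mean of ratios within tags left 2 genes lower in NCs. Leaving out 1 tag gave 1 to 3 genes lower in NCs and 1 to 2 higher in ACTB-high NCs. Without A951 CA2 was at -0.51 in the ACTB split and -3.25 between NCs and other cells, and without A952 at 4.24 and 0.28. CA8 was at 0.96 in the ACTB split without A951 and -2.29 without A952. Genes higher in NCs numbered 5068 with no limit on the share of cells, against 2897. Genes higher in ACTB-high NCs numbered 1359 to 2136 without 1 tag, against 1411, the highest without A952. Of the described genes 5 had a read in at least 10% of NCs, 3 at 5 reads and 3 at 50000 reads a cell. The cause was not tested. With at least 100000 reads a cell CA2 was at -1.52, CA8 at -1.15 and CA9 at -0.97 between NCs and other cells. CA1, with 43 reads in all, was under the limit for comparison.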
